A study of Homo sapiens with 12 samples.

Results

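The RNAs described here are the H/ACA small nucleolar RNAs and the small Cajal body RNAs, a set of short noncoding RNAs that guide chemical changes on other RNAs. The members are the genes of the array whose only symbol in the platform table starts with SNORA or SCARNA followed by a digit, each read from its transcript cluster with the highest mean (a transcript cluster is the group of probes summarised into one value for a locus). This gave 85 members from 92 clusters, 64 SNORA genes and 21 SCARNA genes, of 22465 genes with a single symbol (0.378%). The rule uses the symbol and, among clusters of a gene, the mean level over all arrays.

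The study asked how a medium free of folic acid (FA) and a very high FA supply act on colorectal cancer cells. HT-29 and SW480, human colon adenocarcinoma lines, were kept for 72 h in RPMI medium with 10000 ng/mL FA or with 0 ng/mL added FA, and total RNA was hybridised to Human Transcriptome Array 2.0 chips. Each of the 4 groups has 3 arrays, called biological replicates in the labels without a word on separate cultures, so the p-values measure only the spread between these 12 samples. The FA stock was dissolved in NaOH and no array is labelled as a solvent control, so FA and its solvent cannot be told apart here. Values are log2 signals, and a level can be compared between arrays for one RNA but not between RNAs.

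H/ACA RNAs fold into hairpins that pair with a target RNA and place a chosen uridine in the active site of the enzyme dyskerin, which turns it into pseudouridine. DKC1 encodes dyskerin, and NOP10, NHP2 and GAR1 encode its partners in the particle. Most SNORA members guide ribosomal RNA in the nucleolus, whereas the SCARNA members stay in Cajal bodies and guide the small nuclear RNAs of the spliceosome. Some SCARNA members carry the C/D boxes of methylation guides, alone or beside H/ACA hairpins. In human cells nearly all of them lie in introns of host genes and are cut from the spliced intron, so the host's mature RNA and the small RNA are separate products of a shared transcript.

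All 85 members were found in the RefSeq table of GRCh38.p14, where 83 lie within at least 1 longer gene, 71 of them within exactly 1. SCARNA2 and SNORA50C lie in none. There are 76 different hosts. A ribosomal protein gene hosts 7 members, a noncoding gene 15 and another protein gene 61. The members are 122 to 421 bases long with a median of 135, and 73 are shorter than 200 bases. SCARNA3 shares its locus in COP1 with the microRNA gene MIR1843, and the shared stretch at chr1:175968397-175968479 (GRCh38.p14, minus strand) is shown because a probe there can read either RNA, with the mature microRNA in capitals.
SCARNA3 and MIR1843: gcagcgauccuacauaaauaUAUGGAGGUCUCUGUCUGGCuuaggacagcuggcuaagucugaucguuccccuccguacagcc

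Host genes of small nucleolar RNAs often belong to the class whose transcripts start in a run of pyrimidines, a feature of many genes of the translation machinery. The starts of the hosts of 8 members with lower values in FA-treated SW480 cells are shown as examples, from 10 bases before the annotated start to 20 bases after it. Capitals mark the letters CTTTC or CTTTT, chosen after the sequences had been seen.
TPT1, host of SNORA31, chr13:45341164-45341193, minus strand: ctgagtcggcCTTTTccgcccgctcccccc
PHB2, host of SCARNA12, chr12:6970645-6970674, minus strand: gctgccCTTTCTTTCgccagccttacgggc
IPO7, host of SNORA23, chr11:9384642-9384671, plus strand: gcttctCTTTCCTTTCgcgccggttgccgc
SNHG8, host of SNORA24, chr4:118278752-118278781, plus strand: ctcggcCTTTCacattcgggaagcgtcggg
SNHG17, host of SNORA71A and SNORA71C, chr20:38435309-38435338, minus strand: gtgtggcctcagtccttcgccgtccctcgc
NSD2, host of SCARNA22, chr4:1871383-1871412, plus strand: gggcggggtcggcgccgcgcgcgagagcct
EP400, host of SNORA49, chr12:131949932-131949961, plus strand: ccgccgcttcctcccgccggggccccggat
The letters stand in 13 of 62 hosts with such a sequence (21.0%) and in 12.5% of 27305 genes, counting both strands. On the gene's own strand the shares are 19.4% and 7.39%. The hosts shown above, after which the letters were chosen, are among the 62. A match of this kind is a description of the letters only.

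Member means over the arrays ran from 3.58 to 13.8 on the log2 scale. Of the 85 members, 72 had a mean over the 12 arrays above the middle of all clusters (4.45), and 13 lay at or below it. Above the middle stood 16 of the 21 SCARNA genes. A mean of 8 or more, a limit set after the values were seen and at percentile 89.9 of all clusters, was found for 21 members. The brightest were SNORA71A (13.8), SNORA48 (13.7) and SNORA71C (13.2), and next came SCARNA7 (12.5), SCARNA9L (12.1), SCARNA12 (11.8), SNORA71D (11.6) and SNORA21 (10.8). SNORA71A, SNORA71C and SNORA71D belong to a family of near copies that guide 18S rRNA, and how their probes share signal is not known. The same holds for the SNORA70 and SNORA11 families and for SNORA38, which has 7 clusters.

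Before the comparisons, 2 arrays have to be named. HT-29 0 ng/mL replicate 3 correlated with the other HT-29 arrays at 0.944 to 0.954, whereas these correlated with one another at 0.988 to 0.995. It was the lowest untreated HT-29 array for 16 of the 21 members with a mean of 8 or more. Among the SW480 arrays, which correlated at 0.986 to 0.995, 0 ng/mL replicate 3 was the highest untreated array for 15 of these 21. By the mean over all 12 arrays, all 9 epithelial markers measured were above the middle of the arrays. The same held for 0 of 3 endothelial, 1 of 5 fibroblast and 2 of 5 leukocyte markers (CD68 and LYZ). In SW480 alone the lowest epithelial marker read 3.78 without FA and 3.71 with it, below that middle (4.45). Between the untreated lines 5 of the 9 were lower in SW480 and 2 higher at an adjusted p under 0.05 (limma).

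In SW480 the members with bright signals had lower values with FA. Of the 21 members with a mean of 8 or more, 19 had a lower mean at 10000 ng/mL and 2 a higher one, with a median log2 difference of -0.94. The 3 untreated arrays had medians over these members of 10.08, 9.66 and 10.70, and the 3 treated arrays 8.88, 9.14 and 8.74. All treated arrays thus lay below all untreated ones. Over the 6828 clusters of the same brightness the median difference was 0.09, and the array medians were 9.91, 9.84 and 9.90 without FA and 9.95, 9.99 and 9.99 with it. In a bulk sample, fewer cells that hold an RNA and less of it per cell cannot be told apart.

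**Figure D1:**
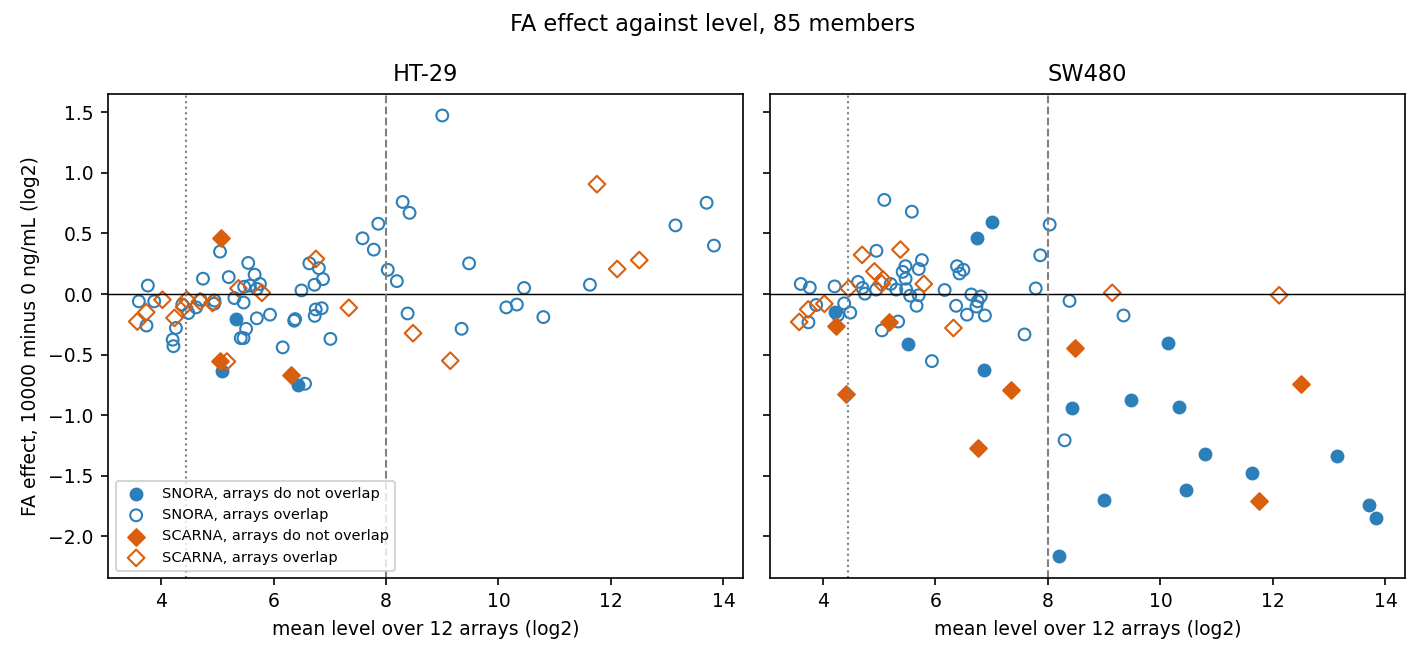
Log2 difference between FA-treated and untreated cells against the mean level over the 12 arrays (log2) for the 85 members, HT-29 on the left and SW480 on the right. Circles are SNORA and diamonds SCARNA genes, filled where the 3 treated and 3 untreated arrays do not overlap, the dotted line is the middle of all clusters and the dashed line a level of 8. In SW480, 15 of the 21 members right of the dashed line are filled and lower (71.4%, against 4.77% of all clusters of that level).

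No member passed the limma test after Benjamini-Hochberg adjustment over 67528 clusters in SW480 (0 of 85, against 0.00592% of all clusters), and the smallest adjusted p was 0.482, for SNORA31. At an unadjusted p under 0.05 there were 23 members, 3 higher and 20 lower. Over all 67528 clusters there were 2739, 1086 higher and 1653 lower. The study's own criteria, an unadjusted p of at most 0.05 with a fold change of at least 1.5, were met by 15 members in the lower direction (17.6%, background 0.705%) and by 2 in the higher direction (2.35%, background 0.336%). The arrays of both groups did not overlap for 23 lower members (27.1%, background 4.85%) and 2 higher ones (2.35%, background 2.99%). All 15 lower members that met the criteria were among those without overlap, and 11 of them had a mean of 8 or more. Their adjusted p ran from 0.482 to 1. Over all 85 members the median difference was -0.08, against -0.02 over all clusters, with 35 members higher and 50 lower.

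Single arrays moved this number. Without SW480 0 ng/mL replicate 3, 9 of the 15 met the criteria, and no other member did in that direction. Without SW480 10000 ng/mL replicate 2, the lowest treated array for 14 of the 21 bright members, the number was 8. Without HT-29 0 ng/mL replicate 3 all 15 did, among 17. The median of the 21 bright members was -0.665 without SW480 0 ng/mL replicate 3, and 19 were still lower.

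SNORA71A, SNORA71D, SNORA71C and SNORA24, which guide 18S rRNA, met the criteria in SW480. SNORA71A, in SNHG17 at chr20:38427306-38427443, had values of 14.37, 13.88 and 15.16 in untreated SW480 cells and of 12.92, 12.23 and 12.72 with FA. The highest treated array stood about 1 log2 unit below the lowest untreated one, and the mean moved from 14.5 ± 0.65 to 12.6 ± 0.35 (SD, n = 3). The log2 difference was -1.85 (SE 0.46, adjusted p = 0.788, limma). SNORA71D was lower by 1.48 on the log2 scale (SE 0.37, adjusted p = 0.787, limma) with 12.20, 12.49 and 12.63 against 11.35, 10.74 and 10.79. SNORA71C was lower by 1.34 on the log2 scale (SE 0.56). Without SW480 0 ng/mL replicate 3 these differences were -1.50, -1.39 and -0.99. The near copy SNORA71B, in the same host, overlapped between the groups, with 9.43, 9.56 and 9.21 without FA and 9.56, 9.42 and 8.69 with it. SNORA24, which lies in SNHG8 and also guides 18S rRNA, read 10.08, 9.66 and 11.91 without FA and 8.88, 8.47 and 9.46 with it. Its groups did not overlap, and the difference of -1.61 (SE 0.57) was -0.93 without SW480 0 ng/mL replicate 3.

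SNORA49, an intronic RNA of the chromatin remodeller gene EP400 at chr12:132031224-132031360, showed the largest difference of all members. Its untreated SW480 values were 7.88, 7.74 and 9.92 and its treated values 6.82, 5.88 and 6.36. Every treated array was below every untreated one, and the untreated spread came mostly from replicate 3. The means of 8.51 ± 1.22 and 6.35 ± 0.47 (SD, n = 3) differ by -2.16 (SE 0.56, adjusted p = 0.872, limma), a 4.47-fold lower signal. Without that replicate the difference was -1.46.

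Among the guides of 28S rRNA, SNORA48, SNORA21 and SNORA23 met the criteria. SNORA48, in an intron of the translation initiation factor gene EIF4A1, read 14.28, 13.30 and 15.60 without FA and 12.82, 12.39 and 12.74 with it (log2 difference -1.74, SE 0.59). SNORA21, in the ribosomal protein gene RPL23, read 10.20, 10.05 and 12.10 against 9.36, 9.17 and 9.85 (-1.32, SE 0.48). In both, replicate 3 of the untreated group was more than 1 log2 unit above the others, and without it the differences were -1.14 and -0.67. SNORA23, in the importin gene IPO7, differed by -0.88, and SNORA47, in the zinc finger gene ZBED3, by -0.62. SNORA31, whose host TPT1 encodes a translationally controlled protein, had narrow groups. Its values were 11.62, 11.40 and 11.40 in untreated and 10.58, 10.61 and 10.43 in treated SW480 cells. The gap between the groups was several times the spread within them, and the difference of -0.93 (SE 0.16, adjusted p = 0.482, limma) was -0.97 without replicate 3.

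**Figure D2:**
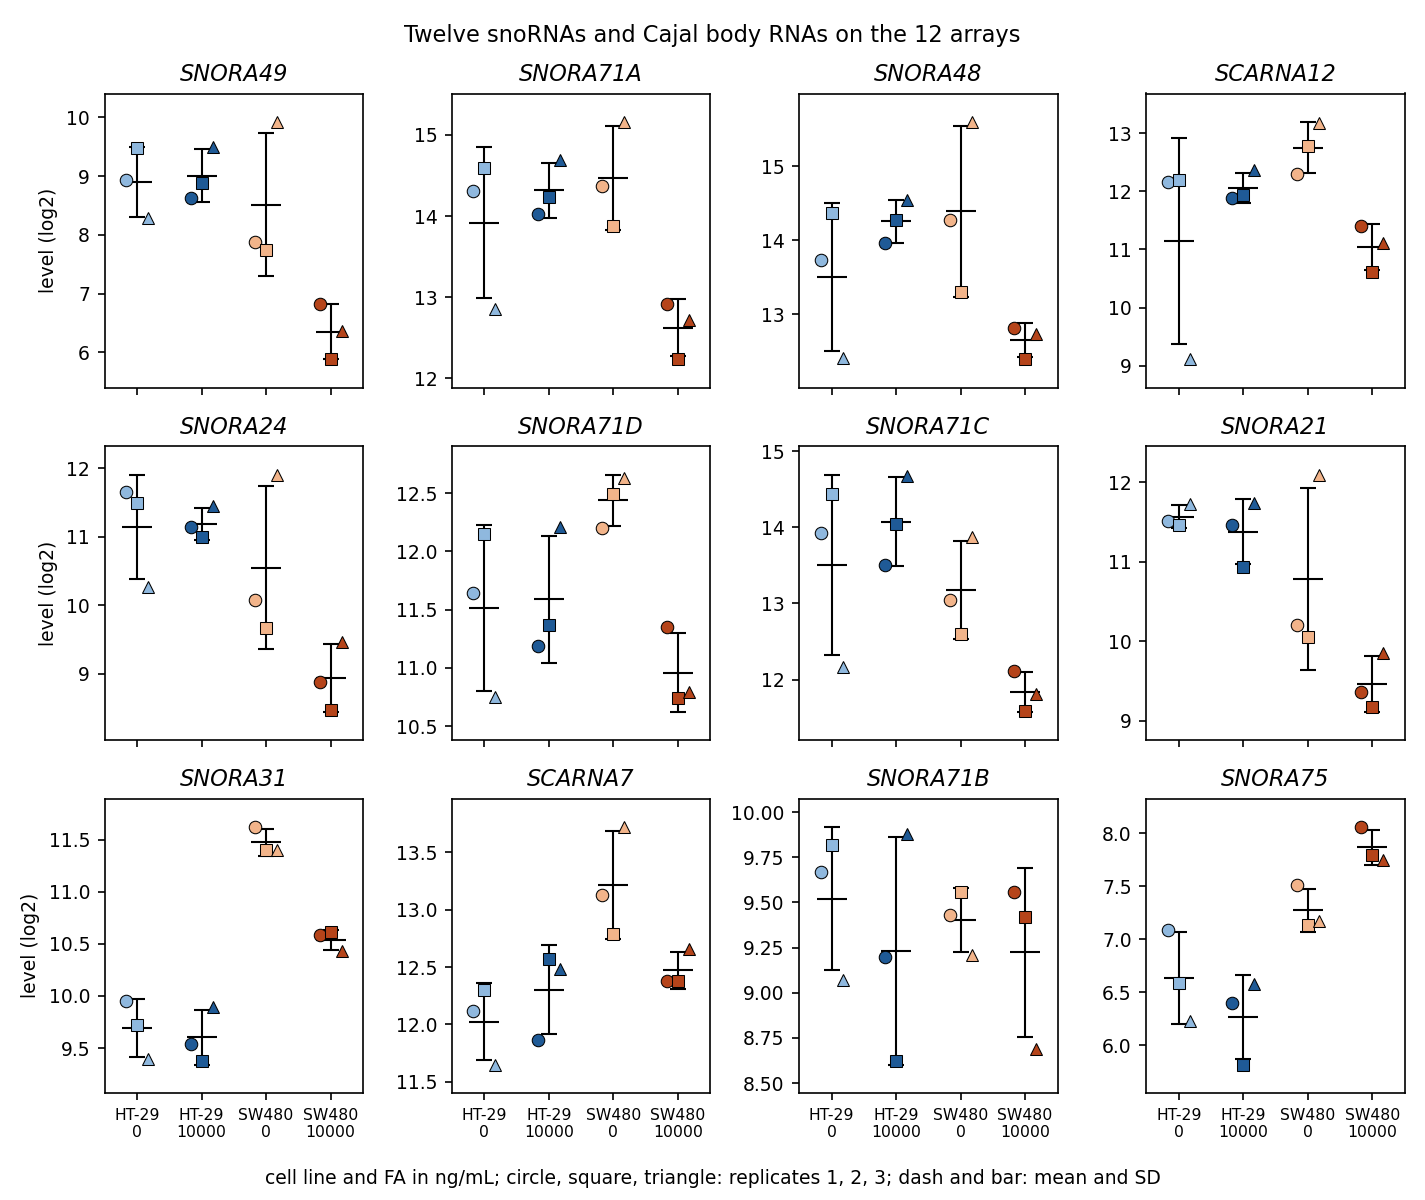
Log2 levels on the 12 arrays of 8 members, those with the largest lower differences in FA-treated SW480 cells among the members that met the criteria without overlap, and of SNORA31, SCARNA7, SNORA71B and SNORA75. Circles, squares and triangles are replicates 1, 2 and 3, dashes and bars the mean and SD of 3 arrays. The treated SW480 arrays lie below all untreated ones except for SNORA71B, which overlaps, and SNORA75, which is higher.

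Among the Cajal body RNAs, 5 of 21 met the criteria in SW480, all lower (23.8%, background 0.705%). The arrays of 8 did not overlap, again all lower (38.1%, background 4.85%). SCARNA12, a guide for the U5 small nuclear RNA in an intron of the prohibitin gene PHB2, read 12.30, 12.77 and 13.18 without FA and 11.40, 10.61 and 11.11 with it. Its groups were well apart, and the difference of -1.71 (SE 0.70) carries a wide error because HT-29 0 ng/mL replicate 3, at 9.11 against 12.16 and 12.19, enters the shared spread. SCARNA7, the U90 guide for U1 in the importin gene KPNA4, read 13.13, 12.79 and 13.72 against 12.38, 12.38 and 12.66 (-0.74, SE 0.27). SCARNA22, known as ACA11 from multiple myeloma and hosted by the histone methyltransferase gene NSD2, differed by -1.27. The U5 guide SCARNA10 differed by -0.79 and the U6 guide SCARNA23 by -0.82. SCARNA23 had a mean level of 4.41, below the middle of all clusters. Without SW480 0 ng/mL replicate 3 the difference of SCARNA7 was -0.49 and that of SCARNA22 -0.83.

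The bright genes SCARNA9L and SCARNA17 did not follow. SCARNA9L, a copy of a small Cajal body RNA gene on the X chromosome, read 11.94, 12.20 and 12.09 without FA and 12.01, 11.81 and 12.38 with it, and SCARNA17, a U4 guide, 8.62, 8.68 and 8.80 against 8.68, 8.80 and 8.65. Both overlapped fully, with differences of -0.01 (SE 0.22) and 0.01 (SE 0.24). SCARNA2, a U2 guide transcribed from its own gene, was lower by 0.45 on the log2 scale, without overlap and below the fold criterion. The remaining 9 SCARNA genes above the middle of the arrays differed by -0.28 (SCARNA5) to 0.37 (SCARNA3), and SCARNA6 alone among them did not overlap (-0.23).

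In the higher direction, SNORA75 and SNORA53 met the criteria in SW480. SNORA75, in the gene of the nucleolar protein nucleolin, NCL, read 7.51, 7.14 and 7.17 without FA and 8.06, 7.80 and 7.75 with it, with no overlap. The difference was 0.60 (SE 0.24). SNORA53 differed by 0.78 (SE 0.28), but its untreated value of 5.11 in replicate 3 lay within the treated range of 4.98 to 5.45. Without that replicate its difference was 1.10. SNORA26, in the noncoding gene DANCR, did not overlap at 0.46.

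Level went with the size of the difference. Across the 85 members the correlation of mean level with the SW480 difference was -0.645 (Pearson) and -0.418 (Spearman), against 0.208 and 0.283 across all clusters. These are correlations across RNAs read on the same arrays, which are not independent replicates, and the level includes the arrays compared. Length was only loosely related, at -0.055 and -0.113. The 16 bright members shorter than 200 bases had a median difference of -1.27 and the 5 longer ones -0.45. All 16 are SNORA and all 5 SCARNA genes, so length and class cannot be told apart here. The 5 ran from -1.71 to 0.01.

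Other short RNAs moved in the same direction in SW480. The 34 C/D box small nucleolar RNAs with a mean of 8 or more, which guide ribose methylation, had a median difference of -1.13. Of these, 26 were lower and 8 higher, and 11 met the criteria, all lower (32.4%). The 55 spliceosomal small nuclear RNA loci of that level had a median of -0.76, with 52 lower and 3 higher. Here 25 met the criteria, all lower (45.5%). Over all clusters of that level, 2.59% met the criteria in the lower direction. Over all levels the medians were -0.08 for 173 C/D box RNAs and -0.15 for 216 small nuclear RNA loci. Without SW480 0 ng/mL replicate 3 the bright C/D box RNAs had a median of -0.44. Of these, 22 were then lower and 12 higher, and 7 lower and 1 higher met the criteria. The bright small nuclear RNA loci stood at -0.875 without that array, with 22 meeting the criteria, all lower. Their array medians overlapped, at 11.24, 11.52 and 10.73 without FA and 10.75, 10.27 and 10.32 with it. Total RNA was purified on silica columns, and the recovery of short RNA was not measured on these arrays. Its part in the results was not tested.

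The host genes did not share the lower values. Of 76 hosts, 54 were measured by a cluster with a single symbol, paired with 60 members. In SW480 these 54 had a median difference of 0.13, with 42 higher, 10 lower and none past the study's criteria, and the array medians were 9.05, 9.02 and 9.13 without FA and 9.12, 9.30 and 9.21 with it. SNHG17, the noncoding host of the SNORA71 genes, read 8.01, 7.52 and 7.74 without FA and 8.01, 8.55 and 8.26 with it (0.52, SE 0.19), while SNORA71A and SNORA71C in its introns were lower. PHB2 differed by -0.01, TPT1 by 0.03, EP400 by 0.15, SNHG8 by 0.22, NSD2 by 0.21, KPNA4 by 0.28 and IPO7 by -0.06. None of these hosts passed adjustment in SW480.

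In all 12 pairs whose member had a mean of 8 or more, the member's difference in SW480 was below that of its host, with a median gap of -1.56. Over all 60 pairs this held for 46, with a median gap of -0.26. Across the 60 pairs the differences of member and host correlated at -0.166 (Pearson) and -0.087 (Spearman). The hosts of SNORA48 and SNORA21 are read only in clusters that also carry small RNA symbols, and these differed by 0.13 and 0.06.

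**Figure D3:**
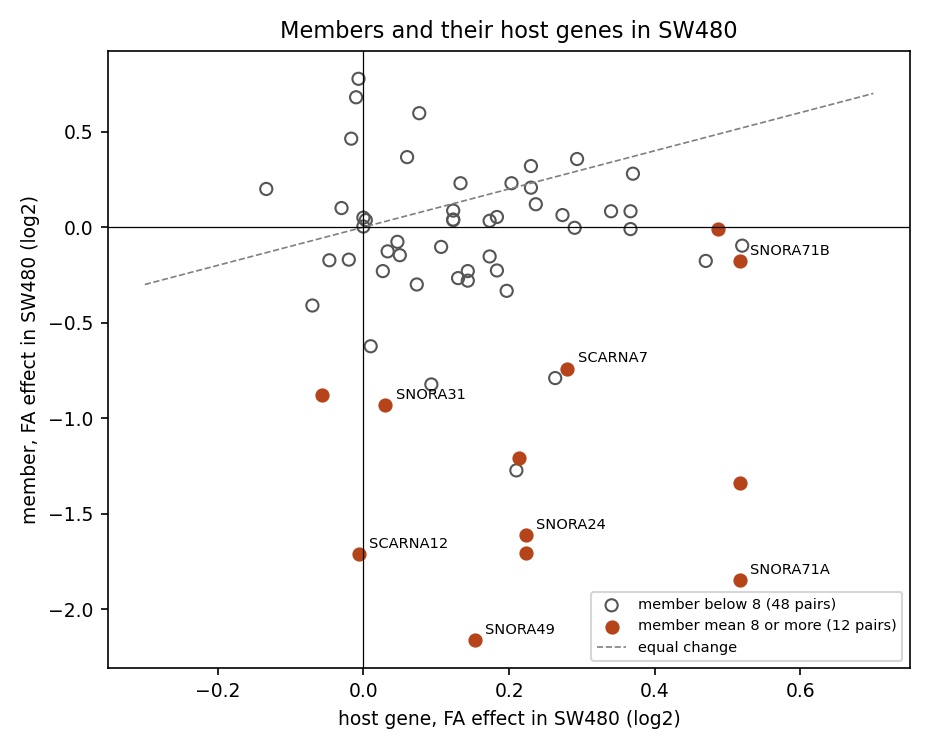
Log2 difference with FA in SW480 of a member (vertical axis) against that of its host gene (horizontal axis) for 60 pairs, filled where the member has a mean of 8 or more, with the line of equal change dashed. All 12 filled points lie below the line, and host differences stay between -0.13 and 0.52.

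Of the 85 members in HT-29, 36 had a higher and 49 a lower mean with FA, with a median difference of -0.06 against -0.08 over all clusters, and 0 passed adjustment (background 0%). At an unadjusted p under 0.05 there were 10 members, 2 higher and 8 lower, and 3671 of all 67528 clusters, 1075 higher and 2596 lower. The study's criteria were met by 0 higher members (background 0.580%) and by 3 lower ones (3.53%, background 0.780%). Arrays did not overlap for 1 higher member (1.18%, background 1.41%) and 5 lower ones (5.88%, background 3.84%). The latter were SNORA74A, SCARNA5, SNORA80A, SNORA53 and SCARNA4. Without replicate 3 of the untreated group the median was -0.13 against -0.01 over all clusters, with 23 higher and 62 lower (72.9% lower, against 51.9% of all clusters), and 15 of the 21 bright members were lower. Again 3 members met the criteria in the lower direction, SCARNA5, SCARNA6 and SNORA5A, of which SCARNA5 was among the first 3.

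SCARNA5, a U5 guide in the autophagy gene ATG16L1, was the only member to meet the criteria with all arrays and without untreated replicate 3. It read 6.79, 6.76 and 6.41 without FA and 6.08, 5.57 and 6.31 with it, so that the groups were apart by a narrow margin, and the difference was -0.67 (SE 0.18, adjusted p = 0.587, limma). Its neighbour in the same host, the U5 guide SCARNA6, differed by -0.56. SNORA74A, the U19 guide of 28S rRNA, read 7.46, 6.95 and 7.18 against 6.59, 5.96 and 6.80 (-0.75, SE 0.32). SNORA11C met the criteria at -0.74 with overlapping arrays, and without replicate 3 its difference was -0.29. SCARNA18, a U1 guide, was the member that stood higher without overlap, with 5.49, 5.35 and 5.06 against 5.98, 5.66 and 5.66 (0.47, SE 0.13, adjusted p = 0.587, limma).

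The values of the bright members in HT-29 depended on the array that stands apart. The 21 members with a mean of 8 or more had a median difference of 0.20 with all arrays, 14 higher and 7 lower, and of -0.12 without untreated replicate 3. Medians over these members were 10.89, 11.46 and 9.40 without FA and 10.73, 10.94 and 11.45 with it, so only replicate 3 of the untreated group lay below the treated range. SNORA38B, hosted by NOL11, shows this most clearly, at 10.89, 11.55 and 7.39 without FA against 10.73, 11.69 and 11.83 with it. Its difference was 1.47 with all arrays and 0.20 without replicate 3. In SW480 it read 7.89, 8.20 and 8.43 without FA and 7.10, 6.06 and 6.25 with it, without overlap (-1.70, SE 0.89). It did not meet the criteria there in this fit, where HT-29 0 ng/mL replicate 3 enters the shared spread. The study, with its own software, lists SNORA38B among the most lowered genes in SW480. With all arrays its line difference in the FA effect was -3.18, the largest of all members. Without HT-29 0 ng/mL replicate 3, the largest lower differences in HT-29 were those of SNORA50A (-0.80), SCARNA5 (-0.79), SNORA74A (-0.76) and SNORA5A (-0.71). The largest higher ones were those of SCARNA18 (0.35), SNORA2B (0.32), SCARNA9L (0.31) and SNORA38 (0.29).

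The difference between the lines in the FA effect was tested as an interaction. No member passed adjustment (background 0%), and the adjusted p was 0.939 for each of the 6 members with the smallest p. The study's criteria were met by 10 members with a lower effect in SW480 (11.8%, background 0.637%) and 4 with a higher one (4.71%, background 0.889%). The 4 were SNORA53, SNORA75 (0.97), SNORA26 (0.64) and SCARNA4 (0.64). An unadjusted p under 0.05 was found for 16 members, and for 2222 of all 67528 clusters. The smallest p belonged to SNORA31, at -0.09 in HT-29 and -0.93 in SW480 (difference -0.85, SE 0.23). SNORA71A was at 0.40 and -1.85 (-2.25, SE 0.66), SNORA48 at 0.75 and -1.74 (-2.50, SE 0.83) and SNORA71D at 0.08 and -1.48 (-1.56, SE 0.52). In the other direction stood SNORA53, at -0.63 in HT-29 and 0.78 in SW480 (1.41, SE 0.40), and SNORA14A, at -0.36 and 0.18 (0.55). All these HT-29 values include untreated replicate 3, which stands apart. Without it, 8 members met the criteria with a lower effect in SW480 and 5 with a higher one. On leaving out each array in turn, the line difference of SNORA71A ran from -2.58 to -1.71. For SNORA48 it ran from -3.04 to -1.89 and for SNORA71D from -1.875 to -1.175.

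**Figure D4:**
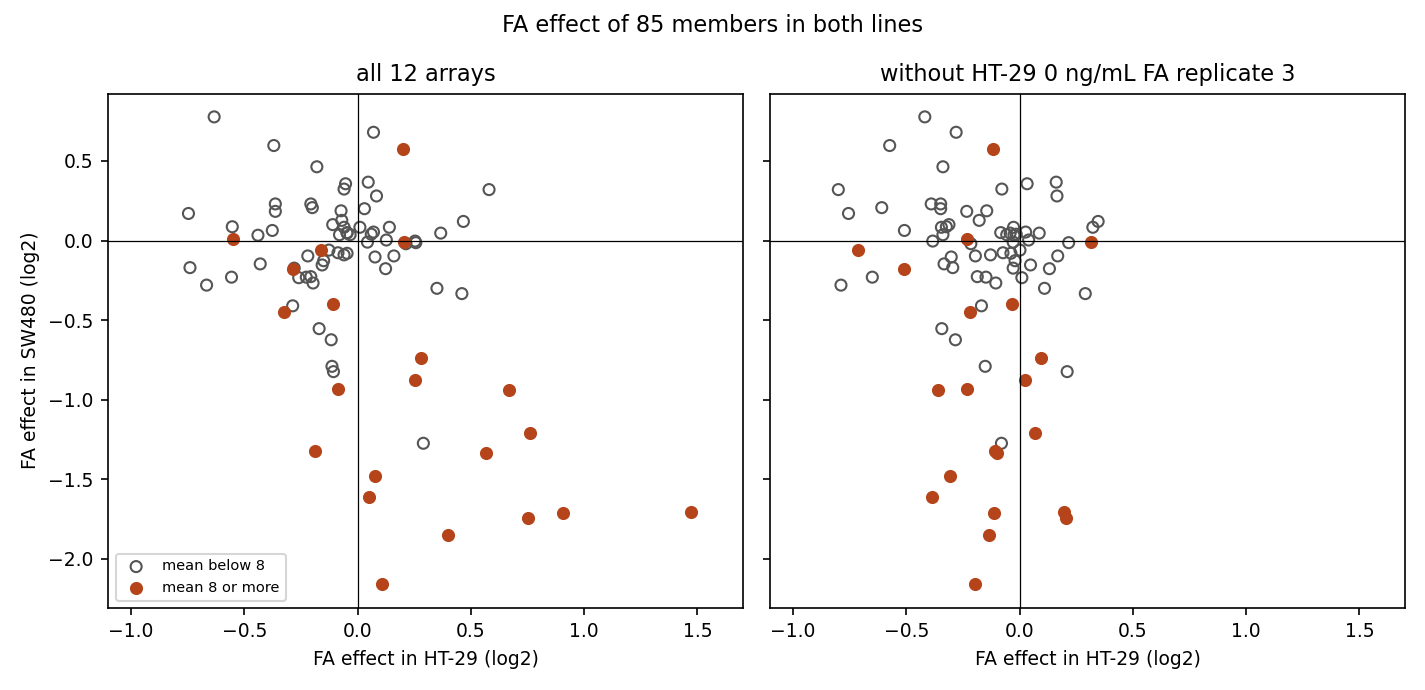
Log2 difference with FA in SW480 (vertical) against that in HT-29 (horizontal) for the 85 members, with all 12 arrays on the left and without HT-29 0 ng/mL replicate 3 on the right, filled where the mean level is 8 or more. Dropping that array moves the median of the 21 filled points on the horizontal axis from 0.20 to -0.12.

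Across the 85 members the differences in HT-29 and SW480 correlated at -0.478 (Pearson) and -0.223 (Spearman), and at -0.158 and -0.165 without HT-29 0 ng/mL replicate 3. The points share the arrays of each line and are not independent. The relation of level to the HT-29 difference likewise went from 0.434 and 0.353 to 0.008 and -0.123 without that array.

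Between the untreated lines the members were called about as often as clusters at large, but more often in the lower direction. By limma, 13 members were higher in SW480 and 23 lower at an adjusted p under 0.05 (15.3% and 27.1%, background 24.7% and 18.0%), with a median of -0.02 against 0.01 over all clusters. Without HT-29 0 ng/mL replicate 3, 31 of these 36 were called again. SNORA57, the U99 guide of 18S rRNA, was the most different, at 11.59, 11.58 and 11.82 in untreated HT-29 and 8.73, 8.71 and 9.17 in untreated SW480 cells. The lines were fully apart, at 6.93-fold lower in SW480 (log2 difference -2.79, SE 0.14, adjusted p = 2.03e-07, limma). The cluster that reads its host CSKMT together with SNORA57 was lower by 0.62 on the log2 scale.

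Other members that were lower in SW480 were the ribosomal RNA guide SNORA10, hosted by the ribosomal protein gene RPS2 (-1.66), SCARNA11 (-1.29), SNORA74A (-1.25), SNORA52 in RPLP2 (-1.22), SNORA53 (-1.17), the U4 guide SCARNA17 (-1.16), SNORA46 (-1.13, with overlapping arrays and its call lost in 10 of 21 other settings), SNORA16B (-1.13) and SNORA20 (-0.99). Higher in SW480 were SNORA31, at 9.95, 9.72 and 9.40 in HT-29 against 11.62, 11.40 and 11.40 (1.78, SE 0.16, adjusted p = 1.19e-05, limma), SCARNA7 (1.19), the U12 guide SCARNA21 (1.12), the 18S rRNA guide SNORA28 (1.10) and SNORA79 (1.03). SCARNA23 (0.97), SNORA80A (0.79), SNORA12 (0.69), SCARNA2 (0.69) and SNORA70D (0.56) followed. SCARNA21 and SCARNA23 had mean levels of 4.24 and 4.41, below the middle of all clusters. SCARNA3, which shares its locus with MIR1843, was lower by 0.73 on the log2 scale (adjusted p = 0.034, limma).

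**Figure D5:**
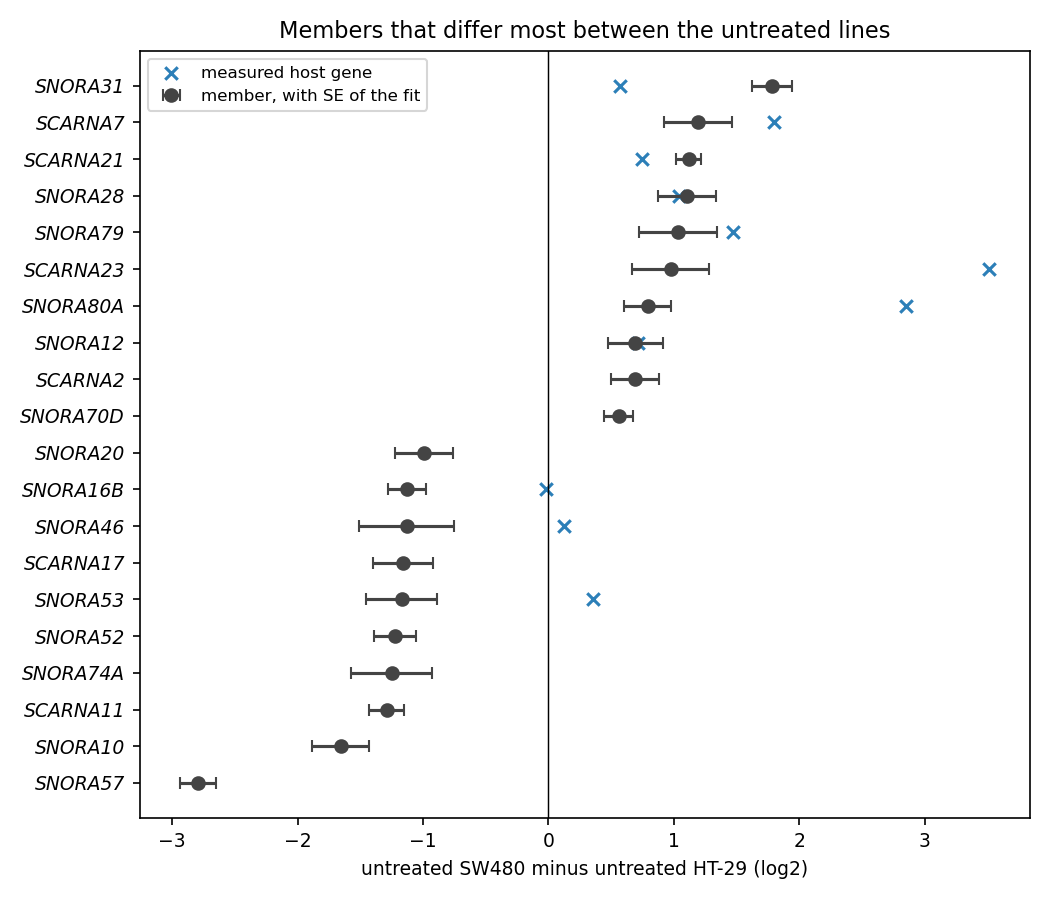
Log2 difference between untreated SW480 and untreated HT-29 cells for the 10 higher and 10 lower members with the largest differences among those past an adjusted p of 0.05, with bars for the SE of the fit and crosses for the measured host gene. SNORA57 is at -2.79 and SNORA31 at 1.78.

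Member and host could be compared for 22 of the 36 members called between the untreated lines. The host was called in the same direction for 13 and in the opposite one for 2. Of all 54 measured hosts, 29 were called higher in SW480 (53.7%) and 5 lower (9.26%). Across the 60 pairs the line differences correlated at 0.385 (Pearson) and 0.398 (Spearman). SCARNA23 and its host POLA1, a DNA polymerase subunit, were both higher in SW480, at 0.97 and 3.51, as were SNORA80A and URB1, a ribosome assembly factor (0.79 and 2.85), and SCARNA7 and KPNA4 (1.19 and 1.80). For SNORA53 the host SLC25A3 stood at 0.35 against -1.17 for the member.

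The protein genes of the H/ACA particle and of its assembly gave no call with FA. Of 36 genes of the core particle, its assembly, the maturation of small nucleolar RNA and the Cajal body, 0 passed adjustment or met the study's criteria in either line, with medians of 0.14 in HT-29 and 0.05 in SW480. Between the untreated lines 22 were higher in SW480 and 3 lower by limma (background 24.7% and 18.0%). Of all genes with a single symbol and a mean of 8 or more, 49.0% were called higher and 11.8% lower. GAR1 was higher by 1.26 on the log2 scale (adjusted p = 1.78e-05) and NHP2 by 0.46 (adjusted p = 0.000306), whereas NOP10 was lower by 1.59 on the log2 scale (adjusted p = 0.00815). The assembly chaperone SHQ1 was higher by 2.51, the lariat debranching enzyme DBR1 by 2.09, the survival motor neuron complex member GEMIN5 by 2.24 and the export adaptor PHAX by 1.71. DKC1 is read only in a cluster that also carries SNORA56 and SNORA36A, at 0.19 in HT-29 and 0.32 in SW480 with FA.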

How the data were processed

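The values are log2 signals that the authors made with SST-RMA (background subtraction, normalization and summarisation) in Transcriptome Analysis Console 4.0; the labels name RMA without a version. They were used as deposited, 12 arrays of 67528 clusters with 0 missing values and 0 columns left aside. No detection call comes with them, and the number of arrays limits the precision.

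Limma 3.58.1 in R 4.3.3 fitted 4 group means (moderated variances, 8 residual degrees of freedom). P-values were adjusted by Benjamini-Hochberg over all clusters. The study's criteria (fold change of 1.5 or more, unadjusted p up to 0.05) were read from that fit.

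Genes were named from the platform table, and 39 clusters with several symbols that include a SNORA or SCARNA were left out. Coordinates and hosts came from RefSeq (GRCh38.p14). A host is the shortest longer gene that spans a member. The table used gives no strand, so hosts were assigned without it.

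Members, lists and tests were chosen with earlier results of these data known. Named are all members that passed adjustment (up to 10 per direction), up to 8 per direction that met the criteria without overlap, the 6 smallest p-values of the line difference, the 8 brightest members, SCARNA genes above the middle of the arrays, core proteins, hosts, and the 4 largest differences per direction in HT-29 without untreated replicate 3. Others were named after their values were seen. Alternatives were separate fits per line, array weights, robust moderation with a variance trend, a replicate block, quantile normalization, median centring, a filter on the lowest 33.3% of clusters, single-symbol clusters, other member rules, a 2-fold limit and leaving out each array. Python 3.11.15 with matplotlib 3.10.9 made the figures.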

Additional observations from a re-analysis of the deposited data

How the results depend on the processing

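Of 218 values recomputed under settings other than leaving out an array, 187 stayed close to the value reported and 31 moved. Under array weights, whose estimate did not converge (weights of 14.8 and 0.0333 for HT-29 0 ng/mL replicates 1 and 3), 16 members passed adjustment in HT-29, and 10 met the criteria there in the lower direction. Under the same weights 12 met them with a higher effect in SW480 in the line difference, 1 in the higher direction in SW480, and 20 higher and 37 lower members passed between the untreated lines (median -0.26). Weights estimated gene by gene, added after seeing the data, gave 1 higher member in SW480 and a median of -0.21 between the untreated lines, and 0 members passed in HT-29. A new quantile normalization gave 1 higher member in HT-29, 1 in SW480, 8 higher calls between the untreated lines and a median there of -0.35. Centring each array gave 1 higher and 1 lower member in HT-29, 1 higher in the line difference and a median of 0.055 for small nuclear RNA loci in HT-29. Separate fits per line gave 1 higher member in SW480. At a fold change of at least 2 there were 0 lower members in HT-29, 0 higher and 9 lower in SW480 and 1 higher in the line difference. With several-symbol clusters added, 26 higher and 36 lower passed between the untreated lines, through the larger number of clusters. Restricting the members to a mean of 8 or more, added after seeing the data, left 0 lower in HT-29, 0 higher in SW480 and 0 higher in the line difference, with medians of 0.20, -0.94 and -1.13.

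The labels do not say whether the replicate numbers pair the arrays. Deviations of same-numbered arrays of different groups correlated at -0.282 to 0.399 and those of differently numbered ones at -0.341 to 0.317. The highest value was that of the 2 SW480 arrays numbered 3. These ranges do not settle whether the arrays are paired. With the replicate number as a block, 2 members met the criteria with a higher effect in SW480 in the line difference, 12 were lower in SW480 and 3 lower in HT-29.

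Leaving out each array in turn gave 0 members past adjustment in HT-29, SW480 and the line difference. The members meeting the criteria numbered 0 to 2 higher and 0 to 7 lower in HT-29 (median -0.13 to 0.01), 0 to 3 higher and 8 to 17 lower in SW480 (median -0.10 to -0.05), and 2 to 5 higher and 5 to 15 lower in the line difference (median -0.07 to 0.02). The count of 7 lower in HT-29 came without its untreated replicate 2 and that of 0 without its treated replicate 2. The line difference had 5 lower members without HT-29 10000 ng/mL replicate 3. Between the untreated lines 9 to 14 higher and 17 to 27 lower members passed (median -0.18 to 0.013). The protein genes had medians of 0.01 to 0.22 in HT-29 and 0.02 to 0.09 in SW480, the hosts 0.00 to 0.30 and 0.06 to 0.18, the C/D box RNAs -0.23 to -0.01 and -0.13 to -0.05, and the small nuclear RNA loci -0.16 to -0.02 and -0.20 to -0.09. The cause of these shifts was not tested.

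Of single members in HT-29, SNORA50A (0.58) turned to -1.099 with array weights, -0.74 with weights gene by gene and -0.80 without untreated replicate 3 (1.475 without replicate 1). SNORA5A (-0.16) turned to 0.15 and 0.08 without untreated replicates 1 and 2 (-0.71 without replicate 3). SCARNA9L (0.21) turned to -0.051 with array weights, -0.041 with quantile normalization and -0.062 without untreated replicate 2 (0.37 without replicate 1). Of the 20 members named between the untreated lines, 15 kept their direction and their call throughout, and the others lost their call in 26 of 420 values. SNORA46 (-1.13) accounts for 10 of these and ran from -1.54 to -0.74 on leaving out an array.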

Other observations

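The rule left out 39 clusters listed with more than a single symbol entry (SNORA73B is listed with its own symbol repeated), of which 31 include a longer gene. SNORA73B, the U17 RNA needed for cleavage of the ribosomal RNA precursor, read 13.30, 13.23 and 14.17 in untreated and 12.44, 12.16 and 12.61 in treated SW480 cells. The groups did not overlap, and the difference was -1.16 (SE 0.33, adjusted p = 0.979, limma). In HT-29 it was 0.06. The cluster of SNORA2C, which also carries the microRNA gene MIR1291, read 10.22, 10.28 and 10.85 against 9.29, 8.67 and 9.36 (-1.34, SE 0.27, adjusted p = 0.594, limma), again without overlap. The others without a longer gene differed in SW480 by -0.69 (SNORA59A with SNORA59B, in a pair of clusters of identical values), -0.36 (SNORA84 with MIR3651), -0.13 (SCARNA9 with SCARNA9L), -0.07 (SNORA36B with MIR664A) and 0.52 (SNORA33 with SNORD100 and SNORD101).

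TERC, the RNA of telomerase, ends in an H/ACA domain and is bound by the same proteins. It read 10.17, 11.12 and 10.78 in untreated and 10.50, 9.90 and 9.68 in treated SW480 cells, with overlapping groups and a difference of -0.66 (SE 0.34). In HT-29 the difference was -0.27.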
